A study of Mus musculus with 10 samples.

Results

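Integrins bind the extracellular matrix only after their cytoplasmic tails have been engaged from inside the cell, and 8 genes of that machinery were followed here in the first pharyngeal arch (PA1) of mouse embryos that lack the transcription factor GRHL2. They are the 3 kindlins *Fermt1*, *Fermt2* and *Fermt3*, the talins *Tln1* and *Tln2*, the integrin-linked kinase gene *Ilk*, its partner *Parva* (alpha-parvin) and the adaptor gene *Pxn* (paxillin), out of 22114 protein-coding genes in the count table. The members were chosen by the measured *Fermt1* level, which is far lower in *Grhl2-/-* arches, so the fall of *Fermt1* is described below without a test. PA1 was dissected at embryonic day E10.5 from 5 wild-type and 5 *Grhl2-/-* embryos on a C57BL/6J background (C57BL/6 in the sample labels). All were male by the study's genotyping of yolk sac DNA, and 1 total RNA library was made per arch. The null allele is present in every cell of the *Grhl2-/-* embryos, and the whole arch was sequenced, with its surface epithelium, neural crest-derived mesenchyme, vessels, blood and nerve cells together. Each arch is named here by genotype and label number (KO for *Grhl2-/-*, WT for wild-type). What this number means, and which embryos were littermates, is not given in the labels. The study's methods state that controls were littermates where possible.

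Talin and kindlin bind separate sites on the tail of the integrin beta subunit, and both are needed for the receptor to take up its high-affinity form and cluster at focal adhesions. Kindlins in turn recruit paxillin and the complex of integrin-linked kinase, PINCH and parvin, which ties the adhesion to actin. Kindlin-1 (*Fermt1*) is the kindlin of epithelia, and its loss in people causes the skin blistering and fragility of Kindler syndrome. Kindlin-2 (*Fermt2*) is found in most adherent cells and kindlin-3 (*Fermt3*) mainly in blood cells and platelets.

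The kindlin genes differ in their promoters as well as in where they are used. The stretch from 250 to 61 bases upstream of the RefSeq transcription start (GRCm38.p6), which lies outside the annotated transcripts of each gene, is shown for the kindlins because only 1 of them differed strongly between genotypes. All 3 genes are on the minus strand, and the sequences read 5′ to 3′ along the gene, with CpG dinucleotides in capitals.
Fermt1, chr2:132946097-132946286: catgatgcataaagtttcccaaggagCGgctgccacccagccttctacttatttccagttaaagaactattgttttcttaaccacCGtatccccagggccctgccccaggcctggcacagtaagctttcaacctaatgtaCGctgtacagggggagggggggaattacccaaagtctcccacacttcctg
Fermt2, chr14:45530126-45530315: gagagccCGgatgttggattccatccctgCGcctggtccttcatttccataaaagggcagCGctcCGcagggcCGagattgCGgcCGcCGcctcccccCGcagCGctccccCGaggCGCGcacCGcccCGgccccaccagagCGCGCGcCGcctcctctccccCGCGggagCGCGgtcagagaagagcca
Fermt3, chr19:7019530-7019719: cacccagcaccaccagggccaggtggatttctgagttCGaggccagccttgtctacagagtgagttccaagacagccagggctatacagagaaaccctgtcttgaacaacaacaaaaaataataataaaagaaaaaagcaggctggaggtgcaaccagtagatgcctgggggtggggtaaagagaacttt
The *Fermt2* stretch holds 23 CpG dinucleotides, the *Fermt1* stretch 3 and the *Fermt3* stretch 1. Over 32851 RefSeq promoter windows, the median of the same stretch is 4, with quartiles of 1 and 10, so *Fermt2* is rich in CpG and *Fermt1* and *Fermt3* are not. The G+C share is 72.6% for *Fermt2*, 51.6% for *Fermt1* and 48.4% for *Fermt3*, against a median of 51.6% over all windows. The motif that the study used for GRHL binding, AACCGGTT, and the looser form AACNNGTT were searched on both strands of the 300 bases from 250 before to 50 after the start. Every match to the first is also a match to the second. Neither was in any of the 6 windows in the set used for 5 of the 8 members (*Fermt1*, *Fermt2*, *Fermt3*, *Tln1* and *Ilk*). *Tln2*, *Parva* and *Pxn* had no window in that set and were not searched. Of all windows, 0.146% hold the first motif and 4.20% the second. The letters are therefore absent from the 6 windows, which says nothing about binding elsewhere.

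Each library held between 22188454 and 28801378 reads counted on protein-coding genes, and 3 reads corresponded to between 0.104 and 0.136 CPM (read counts scaled to library size with trimmed mean of M-values, TMM, factors), a limit that covers counting error only. All 8 members had at least 10 counts in at least 1 arch and were among the 14561 genes tested with limma-voom. *Grhl2* itself fell from 35.6 ± 3.29 CPM in wild-type arches (mean ± SD, n = 5, as below) to 4.53 ± 1.45 CPM in *Grhl2-/-* arches. Of the wild-type arches, WT1-566 and WT1-568 stood apart in the summed level of 14 sensory neuron and glia markers, at 55.4 and 50.6 CPM, where the other 8 arches lay between 306 and 1066 CPM. Values without these 2 arches are given where they change a result.

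*Fermt1* was the member on which the set was chosen. It had 1021, 1326, 1315, 1039 and 1158 reads in WT1-566, WT1-568, WT3-588, WT5-566 and WT8-568, and 264, 275, 288, 297 and 184 reads in KO1-588, KO1-628, KO2-566, KO2-568 and KO3-604. After normalization these were 46.4, 47.7, 45.8, 37.8 and 46.8 CPM in the wild-type arches and 9.42, 10.7, 9.97, 10.6 and 7.10 CPM in the *Grhl2-/-* arches, in the same order. Every *Grhl2-/-* arch was below every wild-type arch, with a wide gap between the highest *Grhl2-/-* and the lowest wild-type value. The mean level went from 44.9 ± 4.03 CPM to 9.54 ± 1.45 CPM, a log2 fold change of -2.24 (SE 0.111) or 4.71-fold. Within the label numbers that both genotypes share, the difference in log2 CPM was -2.07 for 566, -2.16 for 568 and -2.28 for 588. It was -2.20 without WT1-566 and WT1-568. In whole arches, fewer cells of a type and less RNA per cell cannot be told apart. *Fermt1* spans chr2:132904389-132945906 (GRCm38, minus strand; ENSMUSG00000027356), and no exon of another gene overlaps its exons.

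**Figure D1:**
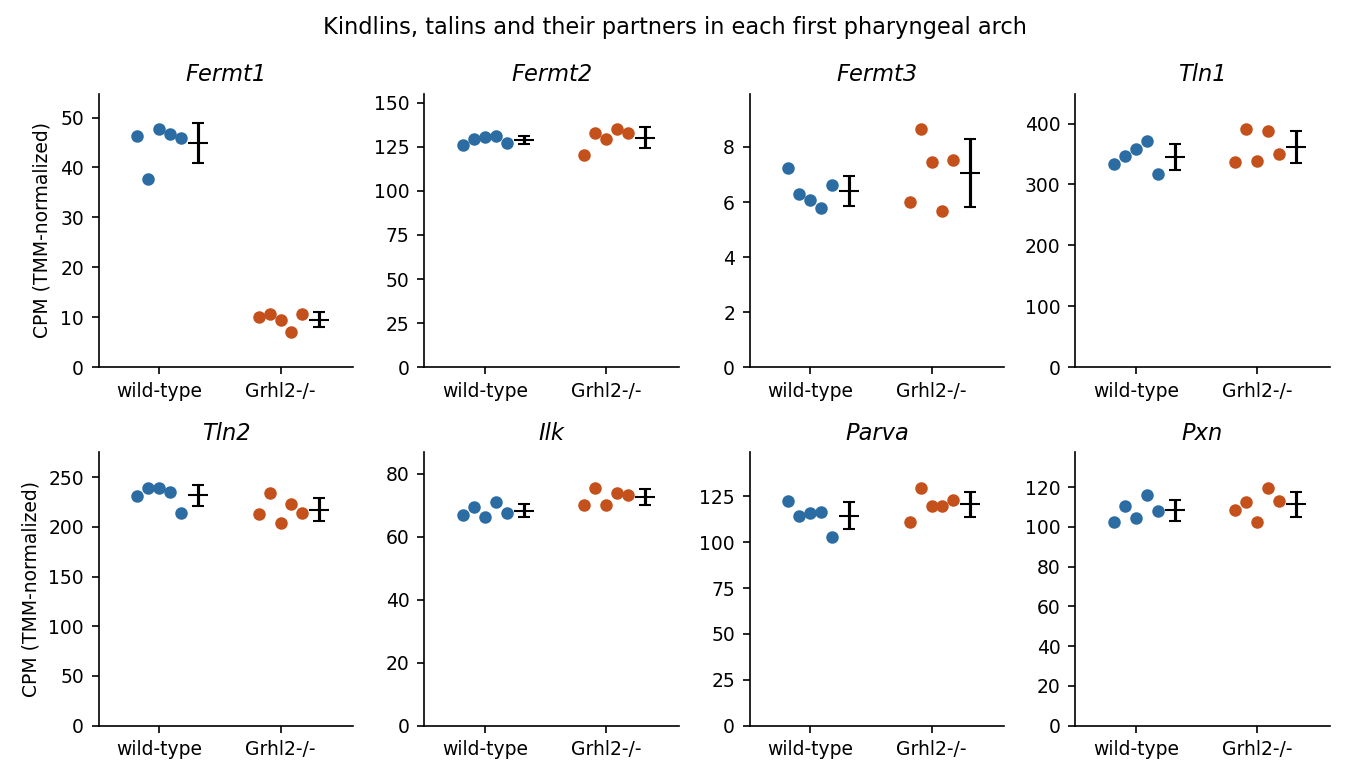
Level of each member in every arch, in TMM-normalized CPM on axes that start at 0, for wild-type (blue) and *Grhl2-/-* (orange) arches. Points are single arches, and bars give the mean and SD of 5 arches. *Fermt1* falls from 44.9 to 9.54 CPM on average, while the groups of each of the other 7 members overlap.

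Neither of the other kindlins passed the test. *Fermt2* measured 126.0, 130.8, 127.2, 129.5 and 131.2 CPM in WT1-566, WT1-568, WT3-588, WT5-566 and WT8-568. In KO1-588, KO1-628, KO2-566, KO2-568 and KO3-604 it measured 129.2, 133.2, 120.6, 133.1 and 135.0 CPM. Both the lowest and the highest values were from *Grhl2-/-* arches, and the wild-type values lay between them. The log2 fold change of *Fermt2* was 0.01 (95% interval -0.07 to 0.10, limma-voom FDR 0.856), and its sign turned in some of the alternative fits. *Fermt3* was low throughout, with 143 to 190 reads per wild-type arch and 147 to 243 per *Grhl2-/-* arch. Its level was 7.22, 6.08, 6.62, 6.29 and 5.78 CPM in the wild-type arches and 7.46, 7.52, 5.99, 8.65 and 5.68 CPM in the *Grhl2-/-* arches, in the order given for *Fermt2*. The highest and lowest of the 10 arches were again both *Grhl2-/-*. For *Fermt3* the log2 fold change was 0.13 with a wider interval of -0.14 to 0.40 (limma-voom FDR 0.503). The arch with the most *Fermt3*, KO2-568, also had the highest summed level of 16 blood and platelet markers, 128.1 CPM, but the other arches did not follow one order: KO1-628 had 7.52 CPM of *Fermt3* with a sum of 91.0 CPM, and KO2-566 had 5.99 CPM with a sum of 111.4 CPM. Over the 5 wild-type arches that sum ranged from 84.2 to 102.4 CPM, and over the *Grhl2-/-* arches from 91.0 to 128.1 CPM, and none of the 16 markers passed FDR 0.01 with limma-voom (1 at an unadjusted p under 0.05). Its part in the *Fermt3* level was not tested. *Fermt2* lies at chr14:45458795-45530118 (minus strand; ENSMUSG00000037712) and *Fermt3* at chr19:6998958-7019469 (minus strand; ENSMUSG00000024965). Exons of *Trpt1* overlap those of *Fermt3* on the opposite strand. The libraries were stranded and the name of the deposited table holds the word reverse, but the methods do not spell out the strand setting of the counting.

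To compare the kindlins with each other, levels were divided by exon length. In wild-type arches *Fermt2* stood at 24.8 ± 0.436 CPM per kb, *Fermt1* at 7.88 ± 0.708 and *Fermt3* at 1.11 ± 0.0959, and the ranges of the 3 genes did not overlap. Of the summed kindlin level per kb, *Fermt1* made up 20.3% to 24.2% in wild-type and 4.41% to 6.72% in *Grhl2-/-* arches. *Fermt2* correspondingly took 72.1% to 76.4% in wild-type and 88.4% to 92.1% in *Grhl2-/-* arches. The summed kindlin level was 32.7 to 34.6 CPM per kb in wild-type and 26.0 to 29.0 CPM per kb in *Grhl2-/-* arches. In *Grhl2-/-* arches, *Fermt1* at 1.25 to 1.87 CPM per kb came into the range of *Fermt3*, at 0.981 to 1.49 CPM per kb. With the length of the longest transcript in place of all exons, *Fermt3* had the higher mean of the pair in *Grhl2-/-* arches (2.36 against 1.82 CPM per kb). These shares rest on the same *Fermt1* counts that chose the members and are descriptions.

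**Figure D2:**
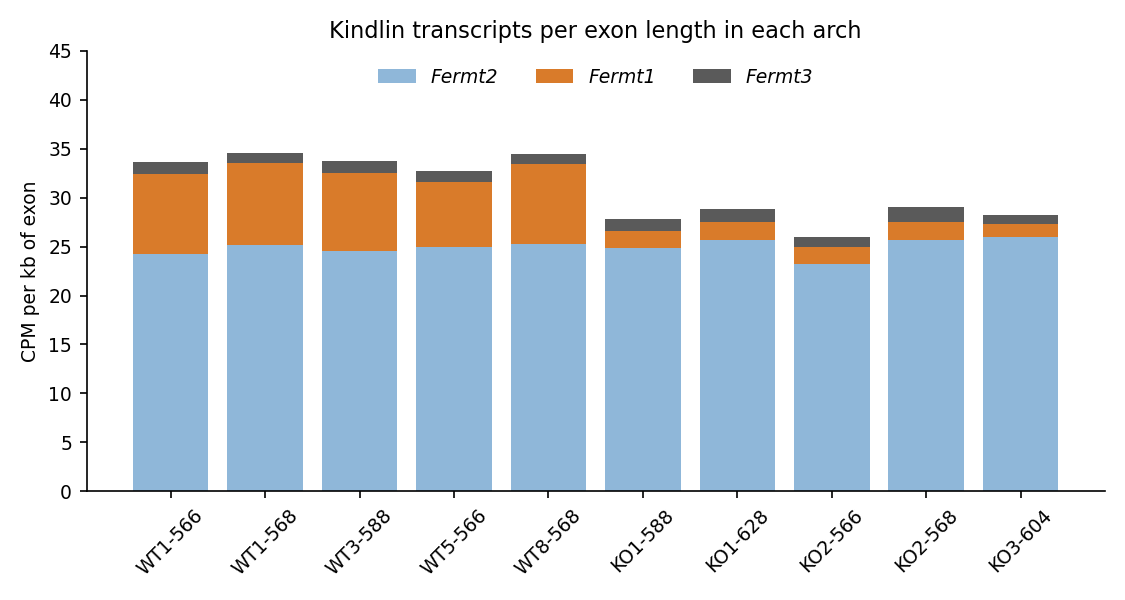
Level of the 3 kindlins in each arch, stacked, in TMM-normalized CPM per kb of annotated exon. *Fermt2* (light blue) has a like height in all 10 arches, *Fermt1* (orange) is 6.63 to 8.36 tall for wild-type and 1.25 to 1.87 tall for *Grhl2-/-* arches, and *Fermt3* (grey) is the thinnest in every arch.

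Since *Fermt1* is an epithelial gene, it was set beside other epithelial genes of the same arch. Of 15 epithelial markers, 9 (60%) fell at FDR below 0.01 and 6 did not pass (limma-voom), where 1.09% of all genes fell. The median log2 fold change of the 15 was -1.42 against 0.01 over all genes tested. Summed, the 15 markers reached 477 to 618 CPM in a wild-type arch and 284 to 397 CPM in a *Grhl2-/-* arch. The sum holds *Cdh1*, *Epcam*, *Esrp1* and *Esrp2*, where the paper reports GRHL2 binding in PA1. The paper also reports lower levels of these genes in isolated *Grhl2-/-* epithelium by quantitative PCR. The sum is therefore not a count of epithelial cells, and its part in the *Fermt1* level was not tested. WT5-566, the wild-type arch with the least *Fermt1*, also had the lowest of the wild-type sums. *Cdh1* (E-cadherin), the cadherin of epithelial adherens junctions, had a log2 fold change of -2.47, and *Epcam*, an epithelial surface adhesion molecule, one of -2.51, both close to that of *Fermt1*. Keratin genes and *Trp63*, the transcription factor gene of basal and surface ectoderm, did not pass the test, apart from the low *Krt5*: the log2 fold change was -0.40 for *Krt8* (FDR 0.203), -0.07 for *Krt18* (FDR 0.848), 0.02 for *Krt19* (FDR 0.951), 0.33 for *Krt14* (FDR 0.144) and -0.24 for *Trp63* (FDR 0.0566). For *Krt5* it was -2.64 (limma-voom FDR 0.00556), on 9 to 20 reads per wild-type arch and 1 to 5 per *Grhl2-/-* arch.

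Reads of *Fermt1* per read of each of 14 epithelial genes with at least 10 counts in every arch are given as a description, since every ratio holds the *Fermt1* counts that chose the members and is bound to be lower for a gene that fell less than *Fermt1*. For 10 of the 14, every *Grhl2-/-* arch had a lower ratio than any wild-type arch, for 4 the groups overlapped and for none was it higher without overlap. There were 0.504 to 0.773 *Fermt1* reads per *Krt18* read in wild-type arches and 0.0983 to 0.194 in *Grhl2-/-* arches. Against *Trp63* the ratio was 0.582 to 0.647 in wild-type and 0.108 to 0.173 in *Grhl2-/-* arches, and against *Krt8* it was 0.937 to 1.54 and 0.250 to 0.468. The ratio to *Cdh1* was 0.935 to 1.11 in wild-type and 0.920 to 1.52 in *Grhl2-/-* arches, and that to *Epcam* 0.711 to 0.962 and 0.702 to 1.43. *Cldn6*, a tight junction gene of early epithelia, and *Esrp1*, an epithelial splicing regulator, were the other 2 genes with overlapping ratios.

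**Figure D3:**
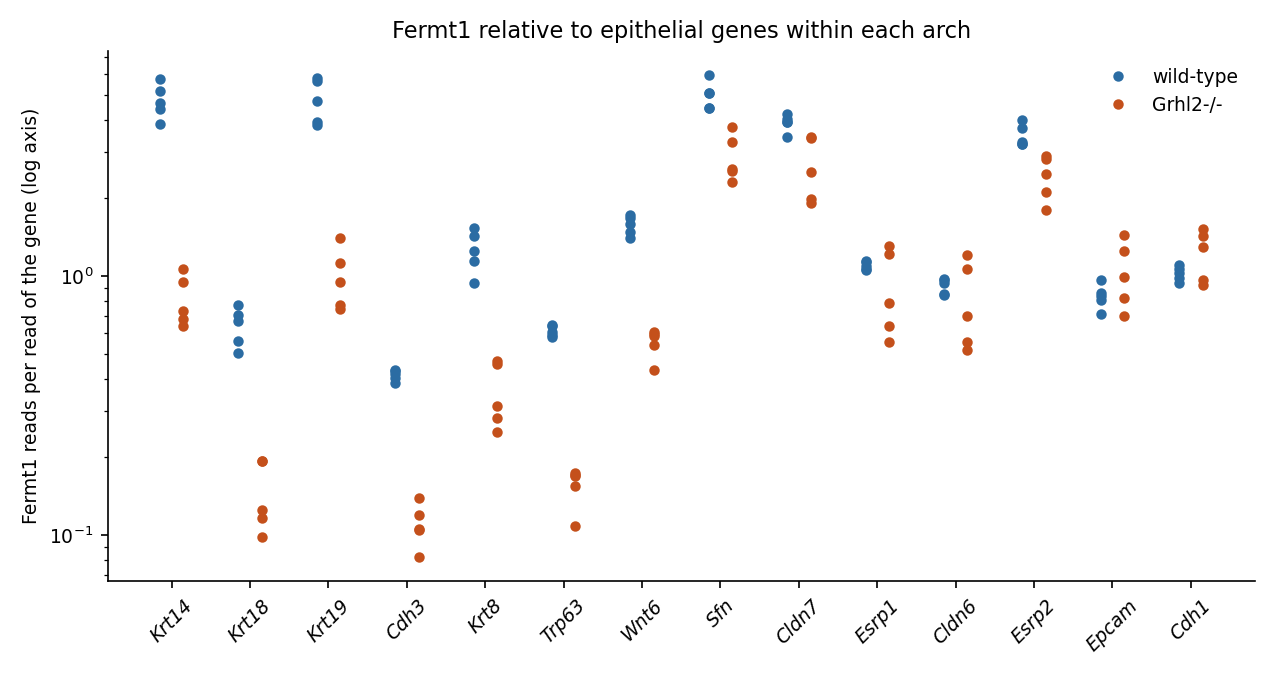
Reads of *Fermt1* per read of each of 14 epithelial genes in each arch, on a log axis, for wild-type (blue) and *Grhl2-/-* (orange) arches. The ratios to *Krt18*, *Trp63*, *Krt8* and 7 further genes are lower in every *Grhl2-/-* arch, and those to *Cdh1*, *Epcam*, *Cldn6* and *Esrp1* overlap.

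Across all 10 arches, the genes most like *Fermt1* by Pearson's r of log2 CPM, among 12692 genes with a mean of at least 1 CPM, were *Trim29* (r 0.998), *AI661453* (0.995), *Epn3* (0.993), *Fat2* (0.992) and *Arrdc1* (0.991). These values share the split between genotypes as well as their libraries. *Trim29* went from 9.44 to 0.538 CPM and *Fat2*, an atypical cadherin of epithelia, from 13.6 to 1.27 CPM, both steeper than *Fermt1*, whereas *Arrdc1* had a log2 fold change of only -0.67. None of the 5 was among the 5 most like genes when only wild-type arches or deviations from the genotype means were used. Their own r was 0.616 to 0.975 in wild-type arches and 0.582 to 0.900 for the deviations. These r are descriptions, since the 5 genes were picked by their likeness over the same arches. In wild-type arches *Fermt1* was at 37.8 CPM in WT5-566 and at least 45.8 CPM in the others, so 1 arch weighs heavily there. For *Fermt3*, the most like genes were *Hint2* (r 0.922), *Lox* (0.915), *Gsta4* (0.903), *Nadk2* (0.899) and *Man2b1* (0.897). Their r was 0.885 to 0.924 for deviations from the genotype means and 0.527 to 0.947 in wild-type arches alone, where none of them was among the 5 most like.

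Talins are the large rod-shaped proteins that link the integrin tail to actin and give the first push to activation. *Tln1* measured 333.1, 358.5, 316.9, 346.8 and 370.6 CPM in WT1-566, WT1-568, WT3-588, WT5-566 and WT8-568. In KO1-588, KO1-628, KO2-566, KO2-568 and KO3-604 it measured 338.8, 350.1, 337.0, 390.7 and 387.7 CPM. The groups overlapped over most of their range, although the top pair of values was from *Grhl2-/-* arches. For *Tln1* the log2 fold change was 0.06 (95% interval -0.06 to 0.19, limma-voom FDR 0.488). *Tln2*, the second talin, measured 231.2, 239.5, 213.8, 238.9 and 235.6 CPM in the wild-type arches and 204.1, 213.5, 212.7, 233.7 and 222.9 CPM in the *Grhl2-/-* arches. Most *Grhl2-/-* values were below most wild-type values, but WT3-588 lay among the *Grhl2-/-* arches and KO2-568 among the wild-type arches. The log2 fold change was -0.09 (95% interval -0.19 to 0.01, limma-voom FDR 0.202). Per kb of exon, *Tln1* made up 73.0% to 74.7% of the talin level in wild-type and 74.8% to 76.5% in *Grhl2-/-* arches. The shift is small, the groups did not overlap by a narrow margin, and it was not tested. *Tln1* lies at chr4:43531519-43562691 (minus strand; ENSMUSG00000028465), where exons of *Creb3* overlap it on the opposite strand, and *Tln2* at chr9:67217087-67559703 (minus strand; ENSMUSG00000052698).

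*Ilk* encodes the pseudokinase at the centre of the complex that kindlins recruit. It measured 66.8, 66.2, 67.7, 69.5 and 71.1 CPM in the wild-type arches and 70.2, 73.4, 70.0, 75.6 and 73.9 CPM in the *Grhl2-/-* arches, in the order used for the talins. The *Grhl2-/-* values were shifted upward, with WT8-568 above KO1-588 and KO2-566. Its log2 fold change of 0.09 (95% interval 0.01 to 0.17) had an unadjusted p of 0.0379 and a limma-voom FDR of 0.151, and was 0.05 (FDR 0.612) without WT1-566 and WT1-568. *Parva*, which binds *Ilk* protein and actin, measured 122.5, 116.1, 102.9, 114.2 and 116.7 CPM in the wild-type arches and 119.8, 123.0, 110.9, 129.7 and 119.5 CPM in the *Grhl2-/-* arches. The groups overlapped widely, and WT3-588 was the lowest of all. For *Parva* the log2 fold change was 0.08 (95% interval -0.04 to 0.19, limma-voom FDR 0.365). *Ilk* lies at chr7:105736592-105742925 (plus strand; ENSMUSG00000030890), with exons of *Rrp8* and *Taf10* on the opposite strand overlapping its own, and *Parva* at chr7:112427505-112591692 (plus strand; ENSMUSG00000030770).

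*Pxn*, the scaffold that kindlin and focal adhesion kinase share, measured 102.4, 104.8, 107.9, 110.6 and 116.3 CPM in WT1-566, WT1-568, WT3-588, WT5-566 and WT8-568. In the *Grhl2-/-* arches KO1-588, KO1-628, KO2-566, KO2-568 and KO3-604 it measured 102.5, 113.2, 108.7, 112.5 and 119.8 CPM. The values of one genotype ran through those of the other. The log2 fold change was 0.04 (95% interval -0.07 to 0.14, limma-voom FDR 0.654) and turned to -0.02 without WT1-566 and WT1-568. *Pxn* lies at chr5:115506676-115555987 (plus strand; ENSMUSG00000029528).

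Thus 1 of the 8 members, *Fermt1*, had groups that did not overlap, and 8.88% of all genes tested had such groups. At FDR below 0.01, 1.09% of all genes were lower and 0.879% higher in *Grhl2-/-* arches with limma-voom. None of the 7 members other than *Fermt1* was called by limma-voom, edgeR or DESeq2. With limma-voom, 1 of the 7, *Ilk*, had an unadjusted p under 0.05, as did 4146 of the 14561 genes tested. The log2 fold changes of the 7 ran from -0.09 to 0.13 with a median of 0.06, beside 0.01 over all genes. Since the rule used this contrast, the *Fermt1* count is not read against the background.

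Per kb of exon, the members spanned a wide range in wild-type arches. *Tln1* had the highest level (35.2 ± 2.15 CPM per kb), followed by *Ilk* (24.9 ± 0.738) and *Fermt2* (24.8 ± 0.436), whose ranges overlapped. *Pxn* (13.2 ± 0.659), *Tln2* (12.6 ± 0.576) and *Parva* (11.3 ± 0.71) came next, and neighbours among these 3 overlapped. *Fermt1* (7.88 ± 0.708) and *Fermt3* (1.11 ± 0.0959) were lowest, each clear of its neighbour. In *Grhl2-/-* arches the order of the means was the same apart from *Parva* and *Tln2* (11.9 and 11.8 CPM per kb). With the length of the longest transcript, *Fermt2* (39.2) moved above *Ilk* (30.0 CPM per kb) and *Parva* (19.5) above *Tln2* (19.1 CPM per kb) in wild-type arches. *Pxn* moved most, to 28.8 CPM per kb, and *Fermt3* to 2.14 CPM per kb, so the levels of these genes depend on the length used.

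The rest of the adhesion machinery was followed in 79 further genes, of which 77 were tested. Of these, 4 fell (5.19%) and 2 rose (2.60%) at FDR below 0.01 with limma-voom, where 1.09% of all genes fell and 0.879% rose. The median log2 fold change of the 77 was 0.05, beside 0.01 over all genes. The 5 other genes of the PINCH and parvin group held no gene called by limma-voom. Neither did the 8 other genes around integrin activation and talin recruitment or the 6 focal adhesion kinases. At an unadjusted limma-voom p under 0.05 there were 1, 1 and 0 genes in these groups. DESeq2 also called none in these 3 groups. *Rsu1*, which binds PINCH, had groups that did not overlap, as did 8.88% of all genes tested. It had the lowest FDR of its list, with a log2 fold change of 0.17 (FDR 0.0620). In the next group this was *Rapgef1*, an exchange factor for the talin-recruiting GTPase RAP1 (log2 fold change -0.13, FDR 0.110), and among the kinases *Fyn* (log2 fold change 0.25, FDR 0.206).

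Among 11 integrin inactivators, *Kank4*, a talin-binding KANK family gene, fell from 87.4 ± 5.75 to 63.4 ± 3.07 CPM, a log2 fold change of -0.46 (SE 0.0526, limma-voom FDR 0.000461). KO3-604, at 68.9 CPM, stood above the other *Grhl2-/-* arches. Of 10 arch mesenchyme markers, 8 had a log2 fold change below 0, with a median of -0.20. With limma-voom 1 was called lower (10%, beside 1.09% of all genes) and none higher. Summed, these markers reached 1786 to 2141 CPM in a wild-type arch and 1591 to 2067 CPM in a *Grhl2-/-* arch. Their part in the *Kank4* level was not tested. Of 23 paxillin family members and adaptors, *Tns4* alone passed the test with limma-voom. *Tns4* is a short tensin of epithelial cells that binds integrin beta tails, and it fell from 3.93 ± 0.398 to 1.58 ± 0.136 CPM, a log2 fold change of -1.30 (SE 0.126, FDR 0.000147).

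Among 26 integrin subunits, of which 24 were tested, 2 fell (8.33%) and 1 rose (4.17%), beside 1.09% and 0.879% of all genes. *Itgb6*, the beta subunit of the epithelial integrin alpha-v beta-6, fell from 1.92 ± 0.348 to 0.613 ± 0.152 CPM, a log2 fold change of -1.62 (SE 0.218, limma-voom FDR 0.00136). *Itgb4*, the hemidesmosomal beta subunit, fell from 3.08 ± 0.526 to 1.35 ± 0.154 CPM (log2 fold change -1.15, SE 0.166, FDR 0.00221). *Itga6*, the alpha subunit that pairs with both beta-4 and beta-1, went the other way, from 142.5 ± 7.92 to 182.4 ± 3.29 CPM (log2 fold change 0.36, SE 0.0407, FDR 0.000461). The common beta subunit *Itgb1* differed by 0.13 on the log2 scale (FDR 0.0679), with groups that did not overlap, as in 8.88% of all genes. Without WT1-566 and WT1-568, the log2 fold change was -1.11 for *Itgb4* (FDR 0.0179) and -1.50 for *Itgb6* (FDR 0.0122). With the label number as a replicate block, *Tns4*, *Itga6*, *Itgb4* and *Itgb6* did not pass FDR 0.01 (limma-voom FDR 0.0108, 0.0119, 0.0242 and 0.0265). *Tns4*, *Itgb4* and *Itgb6* rest on few reads, at most 118, 94 and 57 in any arch. Like *Fermt1*, these 3 genes are known from epithelia. The summed epithelial marker level, which holds genes that the paper reports as bound by GRHL2, was lower in the same arches. Its part in these changes was not tested. Endothelial markers had sums of 348 to 391 CPM in a wild-type arch and 386 to 446 CPM in a *Grhl2-/-* arch, none of the 7 called (limma-voom; 4 at an unadjusted p under 0.05), and their part in the *Itga6* level was not tested either.

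**Figure D4:**
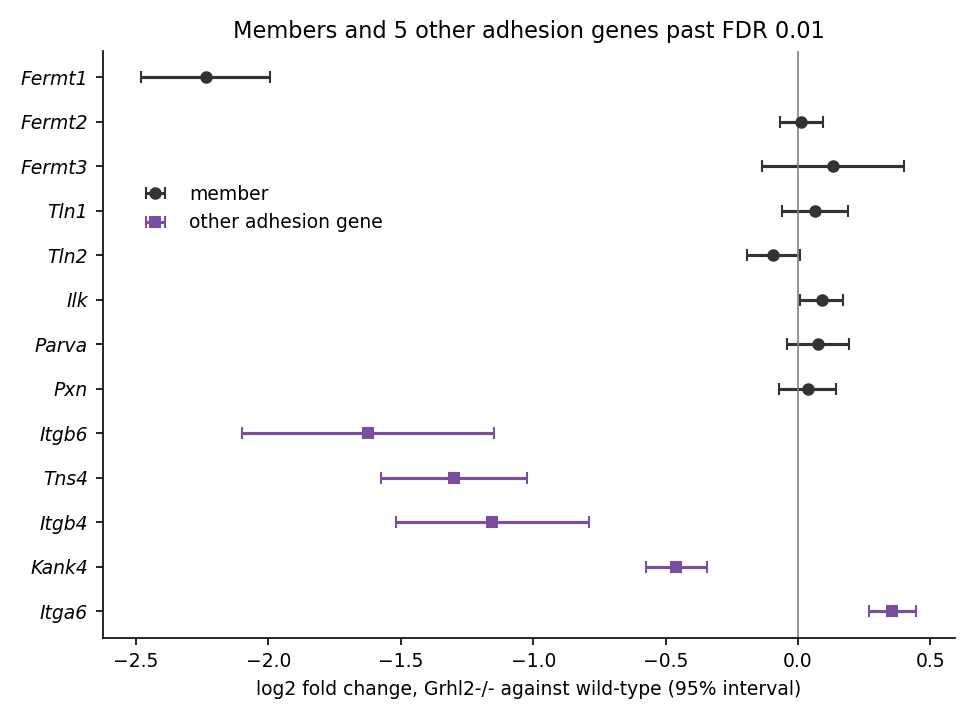
Log2 fold change of the 8 members (black circles) and of 5 other adhesion genes past FDR 0.01 (purple squares), *Grhl2-/-* against wild-type, with 95% intervals from limma-voom. The interval of *Fermt1*, by which the members were chosen, runs from -2.48 to -1.99, those of the other members lie near 0, and *Itgb6*, *Tns4*, *Itgb4* and *Kank4* are below 0 while *Itga6* is above it.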

How the data were processed

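The authors prepared stranded, ribosomal RNA-depleted total RNA libraries from each PA1, aligned the reads to GRCm38 with STAR and counted them per gene with featureCounts. The versions of these 2 tools are not given in the sources used here. The submitters' processing notes name edgeR 3.18.1 and limma 3.32.7. The deposited values are raw read counts, not normalized, and not pooled over arches. A second deposited table repeats counts beside the authors' own fold changes and FDR values and was not used.

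Counts were normalized by TMM (edgeR 4.0.16) and tested with limma 3.58.1 (voom, lmFit, eBayes, R 4.3.3) on the 14561 of 22114 genes that reached 10 counts in 1 arch or more, with genotype as the only term. FDR is Benjamini-Hochberg adjusted over all these genes, and FDR below 0.01 was called. Log2 CPM used a prior count of 0.5. This is the test the study's methods describe. Total counts were 22188454 to 28596428 in wild-type and 25658389 to 28801378 in *Grhl2-/-* arches. Set against counting noise alone, chi-square per gene was 7.29 to 26.4 over 20 pairs of arches of one genotype. These are separate embryos, so a spread beyond counting noise is no finding. Nothing in the labels says how the embryos relate, so p-values measure the spread between these arches. Methods were tested on simulated counts, and no result given here rests on that.

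Exons, coordinates and lengths are from GENCODE mouse release M21 on GRCm38, matched by gene identifier for all 8 members. Promoter windows are from RefSeq on GRCm38.p6, and gene-level protein comparison was not run. Named genes were the members, adhesion genes past FDR 0.01 or, in a list without one, the gene of lowest FDR, the 5 genes most like *Fermt1* and *Fermt3*, and *Grhl2*, *Cdh1* and *Epcam*. The values of 1 adhesion gene past the threshold, kept in the counts, are not reported here. *Itgb1*, the keratins, *Trp63*, *Cldn6*, *Esrp1* and *Esrp2* were named after their values were seen. The members and the gene lists were chosen with earlier results of these data known. Alternatives tried were DESeq2 1.42.0 and the quasi-likelihood test of edgeR, scaling by median-of-ratios factors or by library size alone, 2 filters on low counts, quality weights, the label number as a replicate block, FDR 0.05, another transcript length and leaving out arches.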

Additional observations from a re-analysis of the deposited data

Results flagged for a closer look

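In 42 groups of 5 arches (the members, the called adhesion genes and the marker sums, by genotype), 2 had a single arch far from the others by Dixon's criterion, where chance gives about 2.1. *Fermt1* in wild-type arches was lowest in WT5-566, at 37.8 CPM with the next arch at 45.8 CPM (gap over range 0.815). The same arch had the lowest summed epithelial marker level of the wild-type arches, 477 CPM, and the highest sensory neuron and glia sum, 855 CPM, whose part was not tested. Without it the log2 fold change of *Fermt1* was -2.30. *Kank4* in *Grhl2-/-* arches was highest in KO3-604, at 68.9 CPM with the next arch at 62.3 CPM (gap over range 0.886).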

How the results depend on the processing

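The log2 fold change of *Fermt1* ran from -2.30 to -2.15 over 19 alternatives, and none of the other 7 members was called in any of them. The sign of *Fermt2* turned with the label number as a replicate block (-0.0155) and without WT1-566 and WT1-568 (-0.00542, an alternative chosen after seeing the data), and ran from -0.00898 to 0.0405 when single arches were left out. The sign of *Pxn* turned without WT1-566 and WT1-568 (-0.0189). Over all genes, FDR 0.05 gave 564 lower and 559 higher, DESeq2 gave 553 and 520, the replicate block 69 and 60, quality weights 204 higher, and leaving out WT1-566 and WT1-568 gave 90 and 19. Leaving out 1 arch gave 110 to 249 lower and 42 to 143 higher. Among the other adhesion genes, 5 were higher at FDR 0.05 and 4 with DESeq2, which added *Tgfb1i1* and *Itga9* as higher and *Itgb5* as lower. The block left 1 lower and 0 higher, with log2 fold changes of -1.25 for *Tns4* (FDR 0.0108), 0.35 for *Itga6* (0.0119), -1.10 for *Itgb4* (0.0242) and -1.54 for *Itgb6* (0.0265), beside -1.30, 0.36, -1.15 and -1.62 without it. Leaving out WT1-566 and WT1-568 left 2 lower and 1 higher, and leaving out 1 arch left 4 lower and 1 to 4 higher. The cause of these shifts was not tested. Same-numbered arches of the 2 genotypes deviated together at a mean r of 0.105 over 5 pairs (-0.237 to 0.420). Over 20 pairs with different numbers the mean r was -0.0254 (-0.437 to 0.340). With so few pairs and such a spread, this cannot tell whether the number marks a litter. The main fit did not use the number, and 2 *Grhl2-/-* arches share theirs with no wild-type arch. The 5 genes most like *Fermt1* shared 0 genes with those found in wild-type arches alone and 0 with those from deviations from the genotype means. Low counts limit *Fermt3*, *Tns4*, *Itgb4* and *Itgb6*.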
